A study of Danio rerio with 16 samples.

Results

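Development of zebrafish siblings between 34 and 48 hours post-fertilisation (hpf) was read from RNA sequencing of whole embryos. The libraries used were the 4 sibling libraries of 48 hpf and the 4 sibling libraries of 34 hpf, 8 of the 16 in the series, chosen by the stage and genotype in their labels. The other 8 are hnf4a, hnf4b double knockout embryos of the same stages, made with CRISPR/Cas9, and they entered the shared estimate of spread and are compared with the siblings near the end and for some lists. The labels call the siblings "sib" with no treatment and do not say which hnf4a and hnf4b alleles they carry. Wild-type, heterozygous and single-gene knockout embryos may therefore all be among them. They also give neither the number of embryos in a library nor whether replicates came from separate clutches, so a p-value reflects the spread among these particular samples, which may be technical.

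All libraries of a stage carry the same batch label, which is the stage itself, so stage and batch cannot be told apart. Total counts were 36186542 to 38101069 per library at 48 hpf and 35586032 to 42407778 at 34 hpf. The first principal component of the 8 libraries carried 48.9% of the variance and separated the stages. The second carried 17.7% and separated 48 hpf replicates 2 and 3 from 1 and 4, and 34 hpf replicates 1 and 2 from 3 and 4. Globin transcripts were low in 3 libraries, replicate 4 of 48 hpf and replicates 3 and 4 of 34 hpf. List counts that move by over 1.5 times without these low-globin libraries are given beside the lists described. Over all genes, leaving them out took the number higher at 48 hpf from 4400 to 3168 and the number lower from 3771 to 2224. With fewer libraries, a smaller count or a lost call cannot be assigned to globin content. Of 34 marker genes of 17 tissues, 33 were in the table and 31 had counts in all 8 libraries, from muscle (mylpfa), heart (myl7) and neurons (elavl3) to liver (fabp10a), pronephros (cdh17) and germ cells (ddx4). The acinar marker ctrb1 had 6 counts, all in 1 library of 48 hpf, and 0 at 34 hpf.

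By 34 hpf the zebrafish embryo has finished making somites, its heart beats and blood circulates, and it still lives on yolk inside the chorion. Over the following hours retinal cells leave the cell cycle, lens fibres fill with crystallins, neurons form synapses, the pharyngeal arches begin to make cartilage, the fin folds grow, and hatching gland cells release the enzymes that digest the chorion. Many embryos hatch at around the end of this period.

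Of 24084 genes tested, 4400 were higher at 48 hpf (18.3%) and 3771 were lower (15.7%) at an adjusted p below 0.05 in edgeR's quasi-likelihood test, the test behind every adjusted p and every "rose" and "fell" that follows. Rises were the larger changes. A fold change above 2 was reached by 2082 of the genes that rose and 623 of those that fell, and a fold change above 8 by 187 and 42. Log2 fold changes are 48 over 34 hpf, with an approximate standard error after ±. That error is the size of the change divided by the square root of the test's F statistic. The median log2 fold change was 0.95 among genes that rose, -0.57 among those that fell and -0.03 across the genes tested. Expression levels appear as CPM, a library's counts divided by its TMM-scaled library size and brought to a common total. Each is therefore a relative level, and not the plain share of all counts given in percent for gene classes. In whole embryos a change in the number of cells of a type and a change in RNA per cell cannot be told apart. Genes were grouped into 53 lists by tissue and function, and each list's counts are to be read against the 18.3% and 15.7% of all genes. The 4 libraries of each stage did not overlap for 4918 genes higher at 48 hpf and 4802 lower, called or not. The 12 largest rises and 12 largest falls were chosen from such genes, so no overlap was bound to hold for them.

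**Figure D1:**
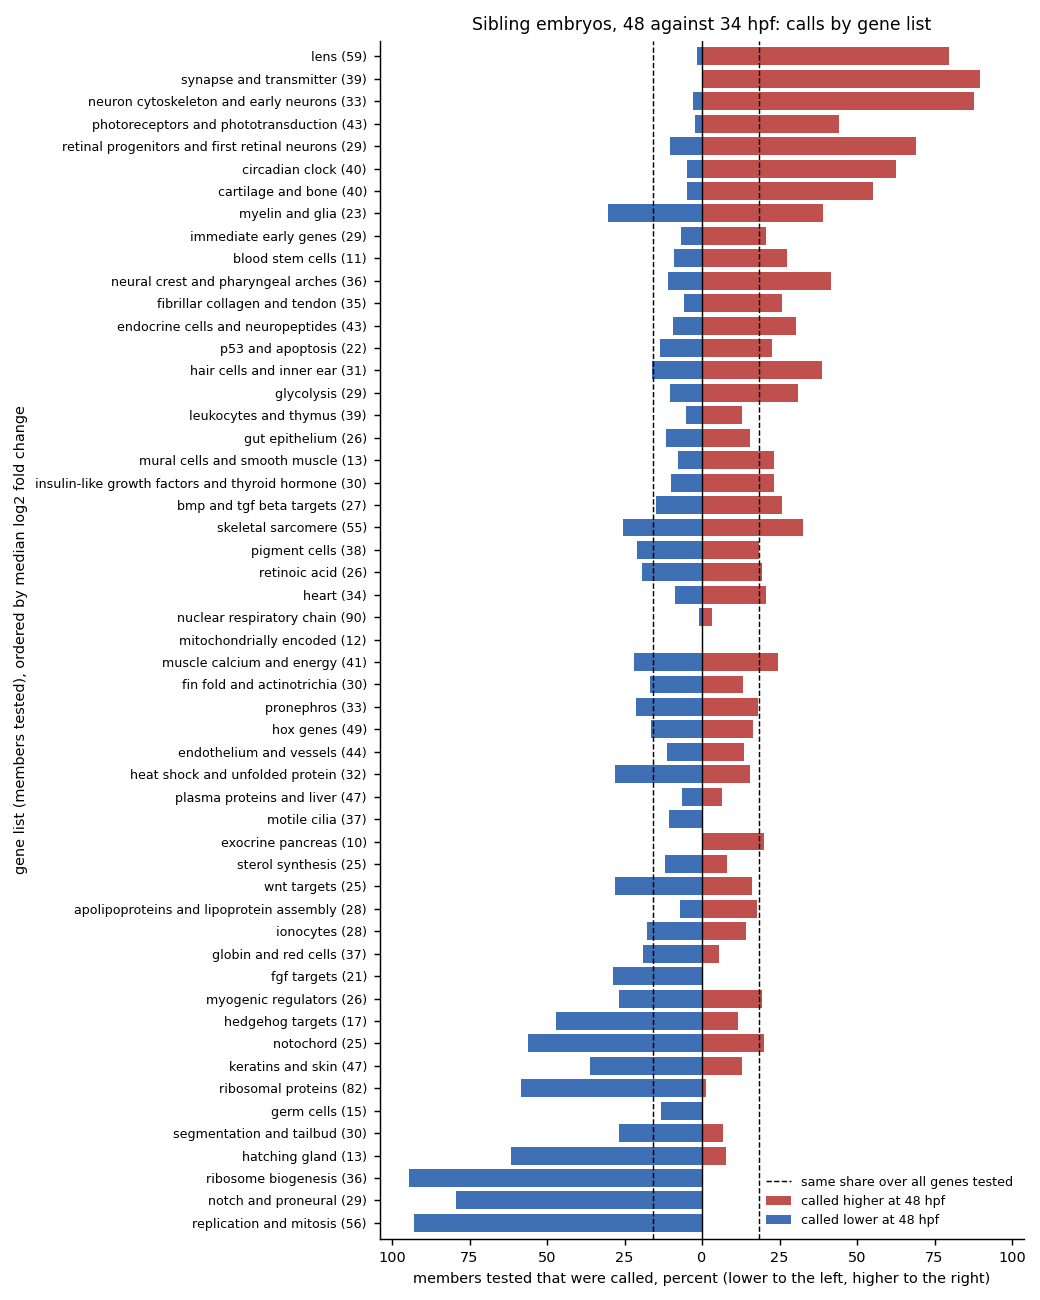
Percent of the measured members of each of 53 gene lists that were called higher (to the right) or lower (to the left) at 48 hpf in siblings, with the number of members tested in brackets and dashed lines at the shares over all genes tested, 18.3% and 15.7%. Lens, synapse and early neuron lists lie farthest to the right and the replication, Notch and ribosome biogenesis lists farthest to the left, while mitochondrially encoded genes have no call in either direction.

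Retinal genes rose in large numbers. Among retinal progenitor and first retinal neuron genes, 20 of 29 measured members rose, 3 fell and 6 passed in neither direction (median log2 fold change 0.66). The cone-rod homeobox gene crx, which drives photoreceptor genes, stood at 91.0, 103, 92.5 and 68.5 CPM at 48 hpf, against 1.89, 3.94, 3.32 and 5.40 CPM at 34 hpf. Every 48 hpf library was above 60 CPM and every 34 hpf library below 6 CPM (log2 fold change 4.60 ± 0.29, adjusted p = 6.13e-09). Its relative otx5 rose by 4.24 ± 0.21 log2 units, the bipolar cell factor vsx1 by 3.55 ± 0.19, and pou4f2, which marks retinal ganglion cells, by 3.21 ± 0.18. The proneural factor neurod1 and mab21l2, needed for eye growth, rose by 1.64 log2 units and 1.40. In the other direction, the progenitor gene rx1 had 11.5, 9.78, 8.92 and 10.9 CPM at 48 hpf, against 27.6, 25.3, 28.9 and 24.9 CPM at 34 hpf (log2 fold change -1.37 ± 0.12, adjusted p = 1.1e-07).

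Genes of photoreceptors and phototransduction followed, with 19 of 43 measured members higher and 1 lower (median 0.82, lower count 2 without 48 hpf replicate 1 or 34 hpf replicate 4). The transducin subunit gene gnb3a was at 30.2, 42.1, 27.5 and 26.1 CPM at 48 hpf, against 0.328, 0.272, 0.292 and 0.295 CPM at 34 hpf. Nearly absent from every 34 hpf library, it reached more than 20 CPM in every 48 hpf library (log2 fold change 6.72 ± 0.39, adjusted p = 4.24e-09). The cone factor six7 was at 39.9, 37.0, 32.4 and 29.9 CPM at 48 hpf, against 0.602, 1.36, 0.933 and 1.57 CPM at 34 hpf (log2 fold change 4.95 ± 0.25, adjusted p = 1.68e-09). The groups of the rod factor nr2e3 stood clear of each other (21.8 ± 2.23 CPM at 48 hpf and 2.35 ± 0.569 CPM at 34 hpf, SD, n = 4, log2 fold change 3.21 ± 0.24, adjusted p = 2.77e-08). Genes of the transduction machinery rose beside these factors. The phosphodiesterase inhibitory subunit gene pde6gb had 45.5, 48.4, 46.0 and 41.6 CPM at 48 hpf, against 3.88, 6.68, 5.13 and 6.68 CPM at 34 hpf, with no overlap and a log2 fold change of 3.02 ± 0.18. Recoverin rcvrna and arrestin sagb rose by 2.83 ± 0.28 log2 units and 3.41 ± 0.32. The disc rim gene rom1a had 130 counts over the 4 libraries of 48 hpf and 0 at 34 hpf. Set against a floor of 3 counts for the whole 34 hpf group, it was 42.7-fold higher. This figure allows for counting error at 34 hpf only and not for the spread between replicates. The member that fell was rbp4l, a relative of the retinol binding protein genes, with a log2 fold change of -2.41 ± 0.34.

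In the lens, 47 of 59 measured members rose, 1 fell and 11 passed in neither direction (median log2 fold change 1.64), and lens crystallins took 0.831 ± 0.0379% of all counts at 48 hpf and 0.236 ± 0.0333% at 34 hpf (SD, n = 4 each). The exact two-sided permutation test of that share gave p = 0.0286, the smallest 4 libraries against 4 can give, and 0.0429 after adjustment over the 6 gene classes examined. The gamma crystallin gene crygm2d11 had 13.3, 9.75, 8.89 and 10.1 CPM at 48 hpf, against 0.164, 0, 0 and 0.246 CPM at 34 hpf (log2 fold change 6.58 ± 0.60, adjusted p = 2.45e-07). It was all but silent at 34 hpf. The alpha crystallin gene cryaa, a chaperone of the lens, was at 39.0, 32.7, 33.8 and 42.9 CPM at 48 hpf, against 2.79, 4.18, 7.35 and 9.09 CPM at 34 hpf, and so had transcripts in every library of both stages. Its lowest 48 hpf library lay above its highest 34 hpf library (log2 fold change 2.66 ± 0.40, adjusted p = 5.27e-05). The further gamma crystallins crygm2d16, crygm2d20 and crygm2d4 rose by 3.94, 2.76 and 2.50 on the log2 scale, and crygm2f had 45 counts at 48 hpf against 0 at 34 hpf, 14.8-fold higher on the same floor and with the same limit. Beaded filament protein gene bfsp2 rose by 2.74 ± 0.20 log2 units, and prox1a, a factor of fibre cells and of lymphatic vessels, by 1.14 ± 0.09. The connexin gene gja8b fell (-1.12 ± 0.17 log2 units). Many gamma crystallin genes are near-identical copies, and the sources used here do not say how reads with several alignments were counted, so a single crystallin is less certain than the class.

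**Figure D2:**
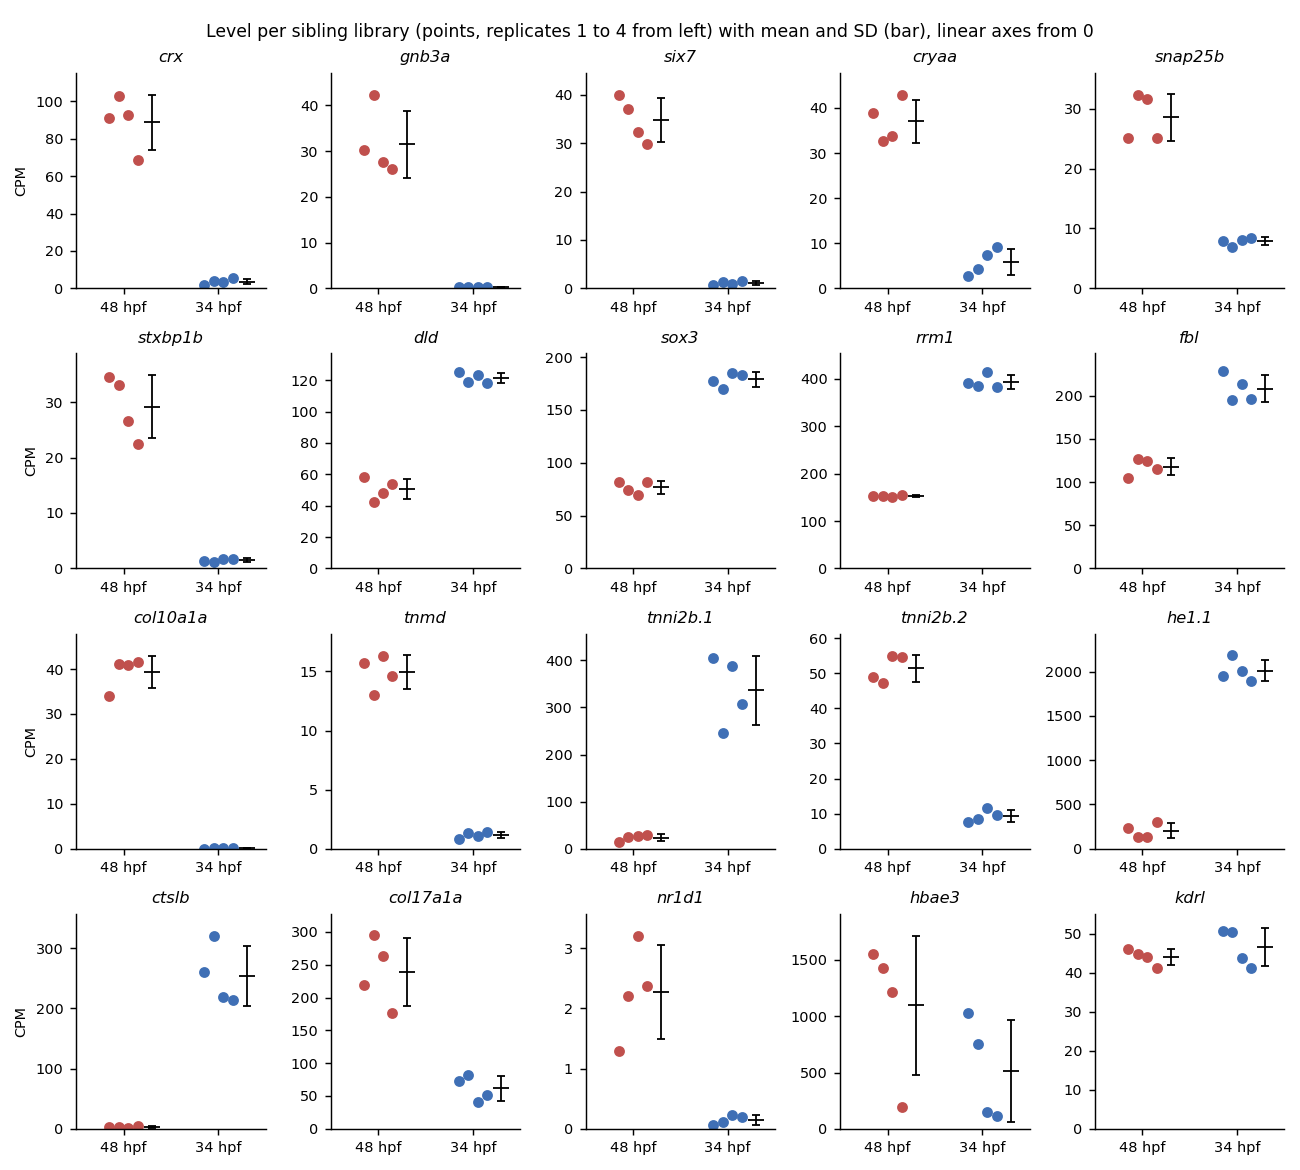
CPM of 20 genes in each sibling library (points, replicates 1 to 4 from left, 48 hpf in red left of 34 hpf in blue), with the mean and SD over 4 libraries beside them. The groups stand apart for all genes shown except hbae3, whose low libraries are replicate 4 of 48 hpf and replicates 3 and 4 of 34 hpf, and kdrl. Over all 24084 genes tested, groups stood apart for 4918 in the higher and 4802 in the lower direction. Some of the genes shown were chosen from these.

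Neuronal differentiation genes rose while genes of neural progenitors fell. Among synapse and transmitter genes, 35 of 39 measured members rose, 0 fell and 4 passed in neither direction (median log2 fold change 1.19). Among them 0 at an unadjusted p below 0.05, 0 with DESeq2 and 0 with limma-voom were lower. The vesicle fusion gene snap25b had 25.1, 32.3, 31.7 and 25 CPM at 48 hpf, against 7.90, 6.95, 8.13 and 8.47 CPM at 34 hpf, a gain in which all 4 libraries of 48 hpf exceeded 20 CPM (log2 fold change 1.86 ± 0.13, adjusted p = 2.12e-08). The fusion regulator stxbp1b showed the largest rise of the list, at 34.5, 33.1, 26.6 and 22.4 CPM at 48 hpf, against 1.26, 1.22, 1.78 and 1.77 CPM at 34 hpf (log2 fold change 4.27 ± 0.28, adjusted p = 8.45e-09). Among genes of inhibitory transmission, the GABA synthesis gene gad2 rose by 1.51 ± 0.09 log2 units and the GABA transporter gene slc6a1b by 1.75 ± 0.11. The vesicle protein gene syn2a rose by 1.33 ± 0.09 log2 units. Among genes of the neuronal cytoskeleton and of early neurons, 29 of 33 measured members rose, 1 fell and 3 passed in neither direction (median log2 fold change 0.94). Neurofilament nefla had 4.15, 4.75, 6.46 and 4.90 CPM at 48 hpf, against 2.21, 1.09, 1.17 and 1.18 CPM at 34 hpf, without overlap (log2 fold change 1.84 ± 0.29, adjusted p = 8.37e-05). The RNA-binding protein gene elavl4 rose by 1.67 log2 units, the tau gene mapta by 1.41, the neuronal sodium pump gene atp1a3a by 1.52, rtn1b by 1.28, the synuclein gene sncgb by 1.28 and the motor and sensory neuron factor isl1 by 1.27. The pan-neuronal marker elavl3 rose less (0.58 ± 0.12 log2 units), and the member that fell was the transcription factor gene onecut1 (-0.48 ± 0.09).

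Most genes of the Notch and proneural list fell. In that list, 0 of 29 measured members rose, 23 fell and 6 passed in neither direction (median log2 fold change -0.77), and those higher numbered 0 at an unadjusted p below 0.05, 0 with DESeq2 and 0 with limma-voom. The count holds for the list as written. The proneural factor neurod1 and the Notch ligand gene dll4, placed in other lists, rose (1.64 log2 units and 0.60). Notch signalling holds neural progenitors in the dividing state, with Delta ligands on the cells about to become neurons. The Delta gene dld had 58.0, 42.6, 48.4 and 53.5 CPM at 48 hpf, against 125, 119, 124 and 118 CPM at 34 hpf (log2 fold change -1.26 ± 0.10, adjusted p = 3.32e-08). Even the highest 48 hpf library was below 60 CPM and even the lowest 34 hpf library above 110 CPM. The Delta genes dla and dlb fell, with log2 fold changes of -1.02 and -1.02 on the same scale. The progenitor factor sox3 was at 81.8, 74.3, 69.1 and 81.5 CPM at 48 hpf, against 177, 170.0, 185 and 183 CPM at 34 hpf (log2 fold change -1.22 ± 0.11, adjusted p = 1.75e-07), sox19a fell with it (-1.33 ± 0.12), and the hairy-related gene her2 had the largest fall of the list (-1.90 ± 0.19).

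Glial genes moved both ways. In the myelin and glia list, 9 of 23 measured members rose, 7 fell and 7 passed in neither direction (median log2 fold change 0.36). Members lower numbered 4 without 48 hpf replicate 1, 3 or 4 or 34 hpf replicate 1, and 3 without the 3 low-globin libraries. The oligodendrocyte factor olig1 was at 2.00, 2.57, 3.98 and 2.18 CPM at 48 hpf, against 0.0547, 0.109, 0.175 and 0.197 CPM at 34 hpf, all 4 libraries of 48 hpf above all of 34 hpf (log2 fold change 4.29 ± 0.53, adjusted p = 6.41e-06). The glutamate transporter genes split, with slc1a2b and slc1a3b higher (1.58 log2 units and 1.66) and slc1a3a lower (-1.82). Among genes of myelin membranes, mpz and plp1a fell (-2.18 ± 0.23 log2 units and -1.27 ± 0.09), and the related gpm6aa and gpm6ab of neuronal membranes rose (1.12 and 1.60).

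**Figure D3:**
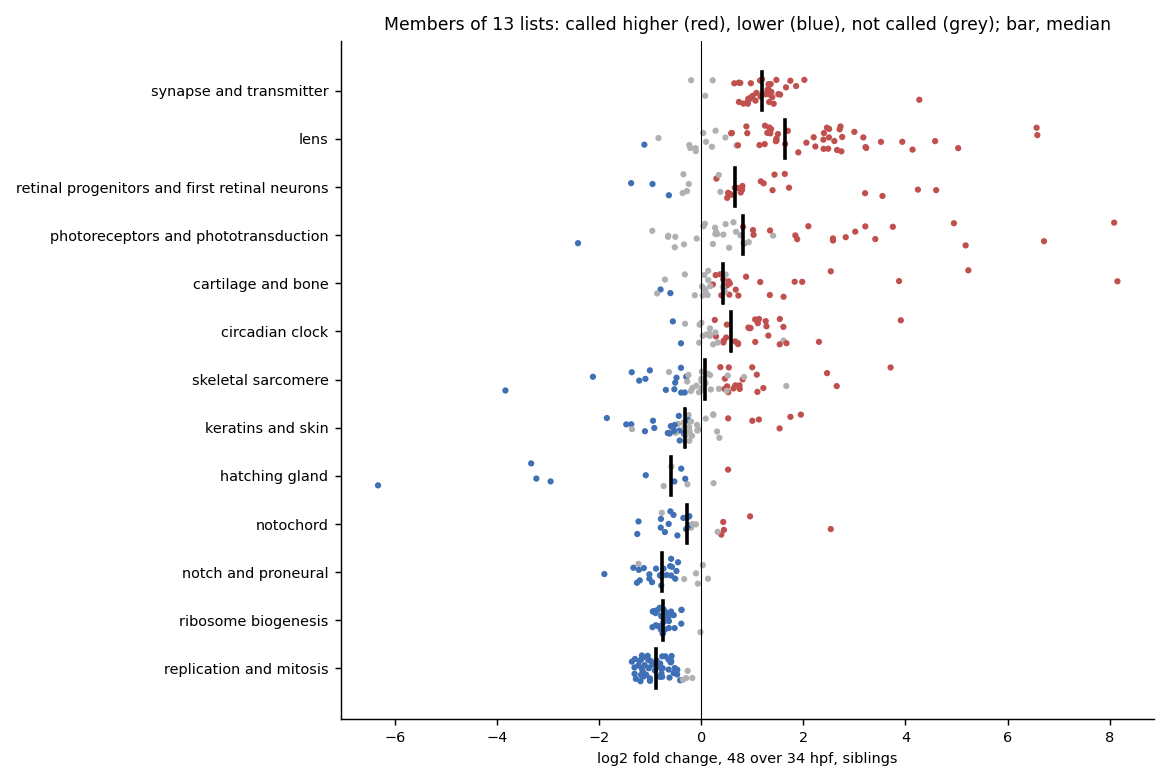
Log2 fold change (48 over 34 hpf, siblings) of every measured member of 13 lists, coloured by call, with a bar at the median and with rom1a and crygm2f, which had 0 counts at 34 hpf, at fitted values that are no bound. Synapse, lens and retina lists lie to the right of 0, replication, ribosome biogenesis and Notch lists to the left, and sarcomere and keratin lists spread to both sides.

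Cell division genes fell. Of the replication and mitosis list, 0 of 56 measured members rose, 52 fell and 4 passed in neither direction (median log2 fold change -0.88), while in the knockouts 0 rose and 52 fell (median -0.77). Those higher in siblings numbered 0 at an unadjusted p below 0.05, 0 with DESeq2 and 0 with limma-voom. Ribonucleotide reductase subunit rrm1, which makes DNA precursors, stood at 153, 154, 150.4 and 156 CPM at 48 hpf, against 391, 384, 414 and 382 CPM at 34 hpf. The 4 values of each stage lay within a narrow band far from the other stage (log2 fold change -1.36 ± 0.17, adjusted p = 5.72e-06). The origin licensing gene cdc6 fell, with a log2 fold change of -1.31 ± 0.09, the helicase subunit gene mcm3 with -1.21 ± 0.09, the DNA polymerase gene pola1 with -1.18 ± 0.10 and the chromatin assembly genes chaf1a and chaf1b with -1.01 and -1.15. The cell-cycle repressor e2f7 fell, with a log2 fold change of -1.08 ± 0.09.

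Genes for making ribosomes fell too. In the ribosome biogenesis list, 0 of 36 measured members rose, 34 fell and 2 passed in neither direction (median log2 fold change -0.74), and those higher numbered 0 at an unadjusted p below 0.05, 0 with DESeq2 and 0 with limma-voom. Fibrillarin, fbl, which methylates ribosomal RNA, had 105, 127, 124 and 115 CPM at 48 hpf, against 228, 195, 214 and 196 CPM at 34 hpf (log2 fold change -0.82 ± 0.09, adjusted p = 2.38e-06), with no library of 48 hpf above 130 CPM. The largest subunit gene of RNA polymerase I, polr1a, fell, with a log2 fold change of -0.95 ± 0.09, and the processing factors heatr1, rcl1, mybbp1a, wdr75 and nop58 with -0.94, -0.96, -0.84, -0.78 and -0.75. Of the genes for the ribosomal proteins themselves, 1 of 82 measured members rose, 48 fell and 33 passed in neither direction (median log2 fold change -0.36). Their lower count was 28 without 48 hpf replicate 1, and 17 without the 3 low-globin libraries. They took 5.29 ± 0.216% of all counts at 48 hpf and 6.57 ± 0.167% at 34 hpf (SD, n = 4 each, exact permutation p = 0.0286, adjusted 0.0429). Members rps9, rps6 and rpl7a fell, with log2 fold changes of -0.54, -0.46 and -0.46, and rps8b, the member that rose, by 1.19 ± 0.20. The call of rps9 was lost without the 3 low-globin libraries (adjusted p = 0.0745).

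Skeletal muscle genes moved in both directions. In the sarcomere list, 18 of 55 measured members rose, 14 fell and 23 passed in neither direction (median log2 fold change 0.08). The lower count was 9 without the 3 low-globin libraries. The share of counts from these genes was 8.11 ± 0.301% at 48 hpf and 6.38 ± 0.296% at 34 hpf (SD, n = 4 each, exact permutation p = 0.0286, adjusted 0.0429). The neighbouring fast troponin I genes moved in opposite directions. The transcript of tnni2b.1 was at 13.8, 24.5, 27.9 and 27.9 CPM at 48 hpf, against 404, 245, 388 and 308 CPM at 34 hpf (log2 fold change -3.84 ± 0.31, adjusted p = 6.37e-08). That of tnni2b.2 was at 48.9, 47.2, 54.9 and 54.7 CPM at 48 hpf, against 7.60, 8.53, 11.6 and 9.51 CPM at 34 hpf (log2 fold change 2.46 ± 0.21, adjusted p = 1.04e-07). The groups of tnni2b.2 did not overlap, and as close copies tnni2b.1 and tnni2b.2 can share reads. The myosin heavy chain gene myhb rose (6.78 ± 2.46 CPM at 48 hpf and 0.513 ± 0.148 CPM at 34 hpf, log2 fold change 3.71 ± 0.50), and so did the light chain gene mylpfb (1.1 ± 0.11) and the Z-disc gene myoz1a (1.00 ± 0.11). Troponin T gene tnnt2c and the myosin chaperone gene unc45b fell (-2.12 ± 0.16 log2 units and -1.22 ± 0.13). The fast light chain marker mylpfa was at 5540.2 ± 294 CPM at 48 hpf and 4866 ± 289 CPM at 34 hpf (SD, n = 4 each) and did not pass (edgeR's adjusted p = 0.419). With the sibling libraries fitted alone it did (adjusted p = 0.00933).

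Among muscle calcium and energy genes, 10 of 41 measured members rose, 9 fell and 22 passed in neither direction (median log2 fold change -0.01). Members lower numbered 5 without 48 hpf replicate 1 and 4 without the 3 low-globin libraries. AMP deaminase, ampd1, which acts in the purine cycle of working muscle, had 162, 133, 138 and 166 CPM at 48 hpf, against 1.12, 2.82, 4.02 and 3.41 CPM at 34 hpf (log2 fold change 5.72 ± 0.38, adjusted p = 9.39e-09). The calcium pump gene atp2a1l and the calcium-buffering parvalbumins pvalb1 and pvalb2 rose by 1.56 log2 units, 1.51 and 1.44, while sarcalumenin srl fell (-1.04 ± 0.16). Of the myogenic regulators, 5 of 26 rose and 7 fell (higher count 3 without 48 hpf replicate 1 or 2 or 34 hpf replicate 1 or 2). The muscle progenitor factors myf5 and pax3a fell, with log2 fold changes of -1.1 ± 0.20 and -1.08 ± 0.17. The fusion gene mymk rose (1.74 ± 0.28 log2 units), klhl40b, klhl41a and klhl41b, which keep muscle fibres stable, fell (-0.91, -0.84 and -0.55), and myod1 did not pass (-0.32 ± 0.16, adjusted p = 0.151).

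Calls among heart genes were near the rate of all genes for rises and below it for falls. In that list 7 of 34 rose, 4 without the 3 low-globin libraries, and 3 fell (1 without 48 hpf replicate 1, 3 or 4 or 34 hpf replicate 1, and 1 without the 3 low-globin libraries). The calcium channel gene cacna1c rose by 0.94 ± 0.16 log2 units, the flow-responsive factor klf2a by 0.93 ± 0.19 and the endocardial factor nfatc1 by 0.63 ± 0.17, its call being lost without the 3 low-globin libraries (adjusted p = 0.0965). The natriuretic peptide gene nppa was at 23.3, 22.0, 24.6 and 26.2 CPM at 48 hpf, against 12.7, 18.5, 4.96 and 7.15 CPM at 34 hpf (log2 fold change 1.15 ± 0.40, adjusted p = 0.0331), a call lost without 48 hpf replicate 3 or 4 or 34 hpf replicate 3 or 4 (adjusted p between 0.0607 and 0.0975), with edgeR's robust prior (adjusted p = 0.0626) and without the 3 low-globin libraries (adjusted p = 0.417). The sodium-calcium exchanger gene slc8a1a fell (-0.70 ± 0.13 log2 units), and myl7, the marker of cardiomyocytes, did not pass (-0.14 ± 0.13).

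Globin and red cell genes gave no summed change that could be told from the spread between libraries. The 13 globin genes took 0.506, 0.392, 0.357 and 0.0738% of all counts in replicates 1 to 4 of 48 hpf, against 0.365, 0.288, 0.0703 and 0.0523% at 34 hpf. Both stages held libraries of either kind, and the exact permutation test of the share gave p = 0.229 (adjusted 0.274). The alpha globin marker hbae3 was at 1553, 1425, 1218 and 191 CPM at 48 hpf, against 1029, 749.7, 146 and 118 CPM at 34 hpf and did not pass (1.1 ± 0.75 log2 units, adjusted p = 0.285). In the list, 2 of 37 measured members rose, 7 fell and 28 passed in neither direction (median log2 fold change -0.17). The lower count was 4 without 48 hpf replicate 3 and 3 without 48 hpf replicate 4 or 34 hpf replicate 1 or 2. Beta globin genes split, hbbe2 higher (81.2 ± 44.4 CPM at 48 hpf and 15.9 ± 12.5 CPM at 34 hpf, log2 fold change 2.35 ± 0.69) and hbbe3 lower (-1.59 ± 0.49), the call of hbbe3 being lost without 48 hpf replicate 4 or 34 hpf replicate 1 or 2 (adjusted p between 0.0580 and 0.0832). The haem synthesis genes alad, cpox and hmbsa fell, with log2 fold changes of -0.70 ± 0.19, -1.16 ± 0.23 and -1.03 ± 0.21.

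**Figure D4:**
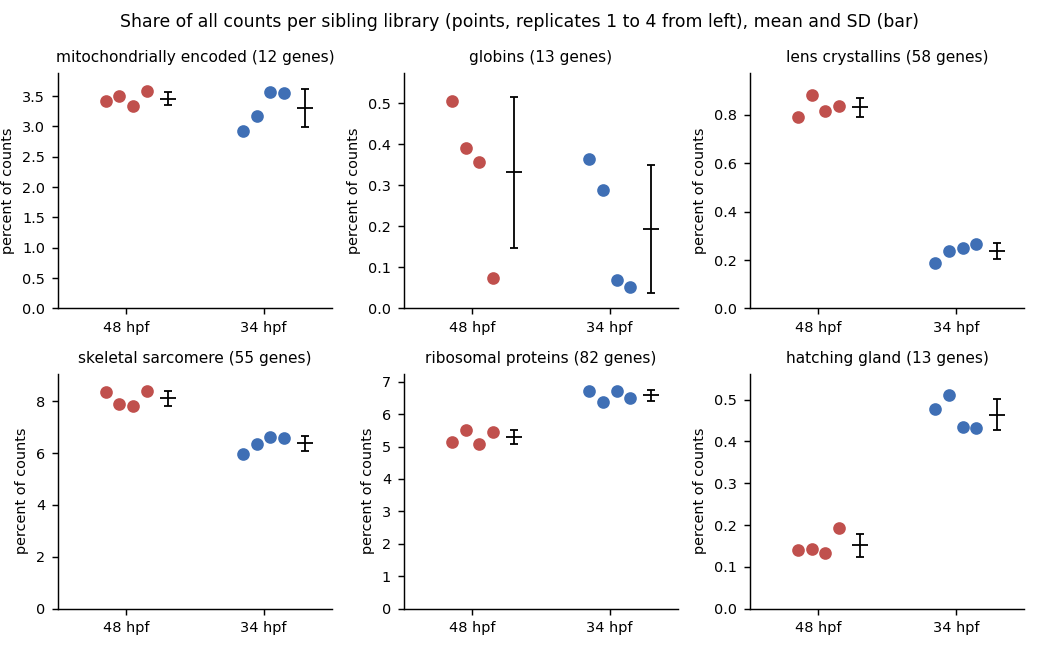
Percent of all counts in each sibling library taken by 6 gene classes (points, 48 hpf in red left of 34 hpf in blue, with mean and SD over 4 libraries). Lens crystallins and sarcomere genes are higher in all 4 libraries of 48 hpf, ribosomal protein and hatching gland genes lower, and globins overlap, with a mean of 0.332% at 48 hpf and 0.194% at 34 hpf.

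Of the leukocyte and thymus list, whose members are not all genes of leukocytes, 5 of 39 rose (3 without 48 hpf replicate 1 or 3 and 2 without 34 hpf replicate 4, 2 without the 3 low-globin libraries) and 2 fell (1 without 48 hpf replicate 2, 3 or 4 or 34 hpf replicate 1, 2 or 3, and 1 without the 3 low-globin libraries). The thymic epithelial factor foxn1 was at 1.58, 3.26, 1.91 and 2.51 CPM at 48 hpf, against 0.711, 0.896, 1.28 and 0.835 CPM at 34 hpf (log2 fold change 1.31 ± 0.33, adjusted p = 0.00524). The chemokine gene ccl34b.1 rose by 2.98 ± 0.81 log2 units (adjusted p = 0.0508 with limma-voom), and apoeb, an apolipoprotein of the yolk syncytial layer and of microglia, fell (-1.36 ± 0.26). The neutrophil gene mpx and the macrophage gene mpeg1.1 did not pass (-0.24 ± 0.21 log2 units and 0.35 ± 0.25). Among genes of blood stem cells, 3 of 11 measured members rose, 1 fell and 7 passed in neither direction (median log2 fold change 0.34). The higher count was 1 without 48 hpf replicate 2 or 3 or 34 hpf replicate 2 or 4, and 1 without the 3 low-globin libraries. The factor myb was the member that fell (-0.93 ± 0.13 log2 units), and gata2a, gfi1ab and meis1b rose by 0.34 ± 0.12, 0.86 ± 0.21 and 0.18 ± 0.06. The call of gata2a was lost without 48 hpf replicate 1, 2 or 3 or 34 hpf replicate 1, 2 or 4 (adjusted p between 0.0727 and 0.0971) and with limma-voom (adjusted p = 0.0529). That of gfi1ab was lost without the 3 low-globin libraries (adjusted p = 0.0740). That of meis1b was lost without 48 hpf replicate 2, 3 or 4 or 34 hpf replicate 1, 2, 3 or 4 (adjusted p between 0.0519 and 0.105), with no filter on low counts (adjusted p = 0.0781) and without the 3 low-globin libraries (adjusted p = 0.218).

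Calls among endothelial genes were below the rate of all genes in both directions (13.6% against 18.3% for rises, 11.4% against 15.7% for falls). Endothelial markers kdrl and cdh5 did not pass: kdrl stood at 44.0 ± 2.05 CPM at 48 hpf and 46.5 ± 4.86 CPM at 34 hpf (-0.08 ± 0.14 log2 units) and cdh5 at 70.9 ± 3.43 CPM at 48 hpf and 68.8 ± 2.79 CPM at 34 hpf (0.04 ± 0.13). Of the endothelial list 6 of 44 rose and 5 fell, or 3 without the 3 low-globin libraries. The fenestration gene plvapa was at 1.24, 0.884, 1.5 and 1.08 CPM at 48 hpf, against 0.273, 0.109, 0.292 and 0.295 CPM at 34 hpf, the 48 hpf libraries above those of 34 hpf throughout (log2 fold change 2.27 ± 0.61, adjusted p = 0.00810, and 0.0547 without the 3 low-globin libraries). Claudin gene cldn5a, of tight junctions, fell (-1.19 ± 0.12 log2 units), as did the chemokine receptor gene cxcr4a (-1.07 ± 0.16), the scavenger receptor gene stab2 (-0.96 ± 0.21) and etv2, which starts the vessel lineage (-0.72 ± 0.16, with an adjusted p of 0.0538 without the 3 low-globin libraries). The Notch ligand gene dll4 rose (0.60 ± 0.10 log2 units). Of the mural cell genes 3 of 13 rose and 1 fell. The growth factor receptor gene pdgfrb and the smooth muscle kinase gene mylka rose (0.65 ± 0.16 log2 units and 1.40 ± 0.16) and notch3 fell (-0.78 ± 0.16). The call of pdgfrb was lost without the 3 low-globin libraries (adjusted p = 0.0665).

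In the cartilage and bone list, 22 of 40 measured members rose, 2 fell and 16 passed in neither direction (median log2 fold change 0.43). Type X collagen, col10a1a, which marks hypertrophic cartilage and, in zebrafish, bone-forming cells, had 34.0, 41.1, 40.8 and 41.5 CPM at 48 hpf, against 0, 0.217, 0.233 and 0.0982 CPM at 34 hpf. This was the largest fitted rise among the genes named here (log2 fold change 8.15 ± 0.39, adjusted p = 1.19e-09). The joint growth factor gene gdf5 had 6.74, 7.57, 7.39 and 5.33 CPM at 48 hpf, against 0.383, 0.543, 0.437 and 0.467 CPM at 34 hpf (log2 fold change 3.87 ± 0.25, adjusted p = 7.55e-09). Both genes were near 0 in every library of 34 hpf. The cartilage matrix marker matn1 had 520 counts over the 4 libraries of 48 hpf and 13 at 34 hpf (log2 fold change 5.23 ± 0.91). Collagen col9a1a and matrilin matn3a rose by 1.83 ± 0.12 log2 units and 1.61 ± 0.13, the chondrocyte factor sox5 by 0.53 ± 0.07, and the widely expressed collagen col2a1a by 0.39 ± 0.10, while snorc fell (-0.80 ± 0.18). Among fibrillar collagen and tendon genes, 9 of 35 measured members rose, 2 fell and 24 passed in neither direction (median log2 fold change 0.26). Tenomodulin, tnmd, a protein of mature tendon cells, was at 15.7, 13, 16.3 and 14.7 CPM at 48 hpf, against 0.793, 1.30, 1.05 and 1.42 CPM at 34 hpf (log2 fold change 3.70 ± 0.24, adjusted p = 8.25e-09). The tendon factor scxa rose by 1.94 ± 0.30 log2 units and the collagen gene col5a2b by 3.30 ± 0.29, whereas col5a3a and col14a1a fell (-2.02 ± 0.15 and -1.18 ± 0.16).

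Notochord genes mostly fell. In the list, 5 of 25 measured members rose, 14 fell and 6 passed in neither direction (median log2 fold change -0.28). The sheath gene cmn was at 231, 240.2, 235 and 195 CPM at 48 hpf, against 361, 396, 434 and 371 CPM at 34 hpf (log2 fold change -0.79 ± 0.15, adjusted p = 3.83e-04), with no overlap between the stages. The notochord determinant tbxta fell, with a log2 fold change of -0.64 ± 0.09, the collagen gene col8a1a with -0.71 ± 0.12, slc38a8b with -1.25 ± 0.28, ntd5 with -0.79 ± 0.10 and the caveola gene cav1 with -0.54 ± 0.10. One of the members that rose was entpd5a, which marks the mineralising segments of the sheath, at 5.55, 4.81, 6.90 and 5.23 CPM at 48 hpf, against 1.26, 0.869, 0.700 and 1.03 CPM at 34 hpf (log2 fold change 2.54 ± 0.47, adjusted p = 4.35e-04).

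In the neural crest and pharyngeal arch list, 15 of 36 measured members rose, 4 fell and 17 passed in neither direction (median log2 fold change 0.27). The crest marker crestin had 6.17, 3.98, 5.35 and 3.37 CPM at 48 hpf, against 12.7, 15, 11.3 and 7.12 CPM at 34 hpf (log2 fold change -1.29 ± 0.28, adjusted p = 0.00172), every 34 hpf library above every 48 hpf library. The activator protein genes tfap2a, tfap2b and tfap2c rose by 0.89 ± 0.08 log2 units, 2.06 ± 0.13 and 0.59 ± 0.08, emx2 rose by 0.84 ± 0.09, and the nuclear receptor gene nr2f5 fell (-1.01 ± 0.13). Of the pigment cell genes 7 of 38 rose, 4 without the 3 low-globin libraries, and 8 fell (4 without 48 hpf replicate 1, and 4 without the 3 low-globin libraries). The iridophore genes ltk and pnp4a rose (0.92 ± 0.18 log2 units and 1.01 ± 0.12), as did gpnmb (1.89 ± 0.11) and pmelb (0.84 ± 0.11). The purine synthesis gene gart and the pteridine synthesis gene gch2 of yellow pigment cells fell (-1.42 ± 0.23 log2 units and -0.66 ± 0.11). The melanocyte markers dct and pmela did not pass (-0.31 ± 0.12 log2 units and 0.07 ± 0.13), though dct did with DESeq2 (adjusted p = 0.0482). Among genes of the fin fold and its fibres, 4 of 30 measured members rose, 5 fell and 21 passed in neither direction (median log2 fold change -0.02). Members lower numbered 3 without 48 hpf replicate 1 or 2 or 34 hpf replicate 1, and 3 without the 3 low-globin libraries. The fibre genes and1, and2, and3 and and4 rose by 0.81 ± 0.12 log2 units, 1.49 ± 0.12, 1.30 ± 0.17 and 1.29 ± 0.28, the call of and4 being lost without the 3 low-globin libraries (adjusted p = 0.0607). The factors sp8a, sp8b and msx1b fell, with log2 fold changes of -0.67, -0.97 and -0.46.

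Skin genes fell more often than all genes (36.2% against 15.7%) and rose less often (12.8% against 18.3%). In the list, 6 of 47 measured members rose, 17 fell and 24 passed in neither direction (median log2 fold change -0.31). The hemidesmosome collagen col17a1a, which anchors basal cells, stood at 219, 296, 263 and 177 CPM at 48 hpf, against 72.1, 81.7, 41.0 and 51.7 CPM at 34 hpf (log2 fold change 1.95 ± 0.27, adjusted p = 1.99e-05). The basal keratin gene krtt1c19e had 1410.3, 1621, 1389 and 1094 CPM at 48 hpf, against 387, 532, 487 and 497 CPM at 34 hpf (log2 fold change 1.53 ± 0.19, adjusted p = 5.53e-06). Both were higher in all 4 libraries of 48 hpf. The keratin krt4 of the outer layer fell (11917 ± 428 CPM at 48 hpf and 15053 ± 495 CPM at 34 hpf, log2 fold change -0.34 ± 0.08), a call lost without the 3 low-globin libraries (adjusted p = 0.0659). The keratin gene krt5 rose (0.53 ± 0.17 log2 units), a call lost without 48 hpf replicate 2 or 34 hpf replicate 1 or 3 (adjusted p between 0.0516 and 0.0760) and without the 3 low-globin libraries (adjusted p = 0.116). Transglutaminase tgm1l4, annexin anxa1c and krt92 fell, with log2 fold changes of -1.85 ± 0.30, -1.47 ± 0.15 and -1.37 ± 0.13, and krt15 and krt91 rose by 1.75 ± 0.22 and 1.13 ± 0.15. Of the ionocyte genes 4 of 28 rose and 5 fell (3 without 48 hpf replicate 1). The ammonia transporter gene rhcga was at 2.33, 2.49, 8.09 and 0.916 CPM at 48 hpf, against 0.109, 0.380, 0.262 and 0.147 CPM at 34 hpf (log2 fold change 3.93 ± 0.95, adjusted p = 0.00377, and 0.211 with limma-voom), and its relative rhbg rose too (1.72 ± 0.13). The sodium pump subunit genes atp1a1a.1, atp1a1a.2 and atp1b1b fell, with log2 fold changes of -0.42, -0.79 and -0.57.

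Transcripts of hatching enzymes fell. In the list, 1 of 13 measured members rose, 8 fell and 4 passed in neither direction (median log2 fold change -0.59), and the class took 0.152 ± 0.0273% of counts at 48 hpf and 0.463 ± 0.0372% at 34 hpf (SD, n = 4 each, exact permutation p = 0.0286, adjusted 0.0429). The hatching enzyme gene he1.1 had 236, 132, 129 and 303 CPM at 48 hpf, against 1955, 2184, 2012 and 1899 CPM at 34 hpf (log2 fold change -3.33 ± 0.32, adjusted p = 3.66e-07). Replicate 4 of 48 hpf was the highest of its stage and still far below the 34 hpf libraries. The cathepsin gene ctslb, a classical marker of the gland, had 2.7, 2.71, 2.02 and 5.15 CPM at 48 hpf, against 261, 320.1, 219 and 213 CPM at 34 hpf (log2 fold change -6.33 ± 0.51, adjusted p = 6.39e-08). Copies he1.2 and he1.3, which may share reads with he1.1, fell, with log2 fold changes of -3.23 ± 0.44 and -2.95 ± 0.68, and ctsla with -1.09 ± 0.26. Sibling means of he1.1, he1.2, he1.3 and ctslb were 200, 37.3, 0.264 and 3.14 CPM at 48 hpf. At 34 hpf they were 2013, 350, 2.07 and 253 CPM. Together these levels fall short of the class at either stage, so its share is not that of these genes alone. The gland's lineage factor prdm1a, which is used in other tissues too, rose (0.53 ± 0.15 log2 units). The labels do not say whether embryos had hatched at collection.

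Among genes of the gut epithelium, 4 of 26 rose and 3 fell (median 0.17). These are 15.4% and 11.5%, below the 18.3% and 15.7% of all genes. The brush border gene vil1 was at 2.23, 3.92, 2.84 and 2.16 CPM at 48 hpf, against 1.42, 1.14, 0.525 and 0.540 CPM at 34 hpf (log2 fold change 1.62 ± 0.44, adjusted p = 0.00795), a call lost without the 3 low-globin libraries (adjusted p = 0.127). The intestinal factor cdx1b and the claudin genes cldn15a and cldn15la rose by 1.44 ± 0.25 log2 units, 1.28 ± 0.24 and 1.51 ± 0.24. The fatty acid binding protein gene fabp2, also used by the yolk syncytial layer, fell (77.5 ± 25.9 CPM at 48 hpf and 191 ± 27.1 CPM at 34 hpf, log2 fold change -1.30 ± 0.21). Of the plasma protein and liver genes 3 of 47 rose (5 without 48 hpf replicate 4 or 34 hpf replicate 2, and 5 without the 3 low-globin libraries) and 3 fell (1 without 48 hpf replicate 1 or 34 hpf replicate 1), both below the shares of all genes. Angiotensinogen, agt, had 2.31, 5.64, 4.08 and 11.6 CPM at 48 hpf, against 0.930, 1.00, 0.758 and 2.48 CPM at 34 hpf. The lowest 48 hpf library lay below the highest 34 hpf library, and the gene passed (log2 fold change 2.17 ± 0.49, adjusted p = 0.00203). The gene hpda of tyrosine breakdown rose by 1.97 ± 0.40 log2 units, the growth factor gene igf1 by 1.32 ± 0.31, and the urea cycle gene cps1 fell (-1.20 ± 0.14). The liver markers fabp10a and tfa did not pass (0.05 ± 0.68 log2 units and -0.67 ± 0.41). With the sibling libraries fitted alone tfa was called lower (adjusted p = 0.0236). The marker fabp10a had 79 counts at 48 hpf and 77 at 34 hpf, and tfa 166250 and 261915. In whole embryos the tissue behind the tfa counts is not known, so its change cannot be assigned to the liver. Among apolipoprotein and lipoprotein assembly genes, 5 of 28 measured members rose, 2 fell and 21 passed in neither direction (median log2 fold change -0.11). The lipoprotein receptor gene ldlra rose (3.42 ± 0.538 CPM at 48 hpf and 0.549 ± 0.128 CPM at 34 hpf, log2 fold change 2.63 ± 0.42), apof and apoda.1 rose (1.02 ± 0.16 and 1.91 ± 0.21), and mttp, which loads lipid onto apolipoprotein B, fell (-1.1 ± 0.20).

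Among genes of the exocrine pancreas list, the peptidase gene cpa4 rose (0.478 ± 0.0854 CPM at 48 hpf and 0.0260 ± 0.0301 CPM at 34 hpf, log2 fold change 4.01 ± 0.83), and the call of trypsin prss1 (2.08 ± 0.68) was lost without 48 hpf replicate 3 or 34 hpf replicate 2, 3 or 4 (adjusted p between 0.0538 and 0.132) and without the 3 low-globin libraries (adjusted p = 0.207). Of 10 measured exocrine genes these 2 passed, 1 without 48 hpf replicate 3 or 34 hpf replicate 2, 3 or 4, and 1 without the 3 low-globin libraries. Among endocrine and neuropeptide genes, 13 of 43 measured members rose, 4 fell and 26 passed in neither direction (median log2 fold change 0.24). The higher count was 8 without 34 hpf replicate 1 and the lower 2 without 48 hpf replicate 1 or 3 or 34 hpf replicate 1 or 2, and 2 without the 3 low-globin libraries. The pituitary hormone subunit gene cga was at 0.467, 0.387, 0.310 and 0.754 CPM at 48 hpf, against 0.0547, 0.0543, 0.0292 and 0.0491 CPM at 34 hpf (log2 fold change 3.26 ± 0.78, adjusted p = 0.00324), a call lost without the 3 low-globin libraries (adjusted p = 0.0979). Thyroglobulin, tg, had 3.68, 2.40, 3.05 and 2.05 CPM at 48 hpf, against 0.410, 0.706, 0.758 and 0.589 CPM at 34 hpf (log2 fold change 2.18 ± 0.43, adjusted p = 6.58e-04). The stress hormone gene crhb rose by 2.43 ± 0.57 log2 units, the somatostatin gene sst1.1 by 1.23 ± 0.26 and the secretory granule genes scg3 and chga by 1.13 ± 0.15 and 0.73 ± 0.13. The appetite peptide gene agrp fell (-1.88 ± 0.70 log2 units), a call lost without 48 hpf replicate 1, 3 or 4 or 34 hpf replicate 1 or 2 (adjusted p between 0.113 and 0.130), without the 3 low-globin libraries (adjusted p = 0.0745) and with the sibling libraries fitted alone (adjusted p = 0.0510).

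In the pronephros, the embryonic kidney, 6 of 33 members rose and 7 fell (median -0.02). These are 18.2% and 21.2%, against 18.3% and 15.7% of all genes. The tubule cadherin gene cdh17 was at 43.4, 47.5, 47.0 and 46.3 CPM at 48 hpf, against 93.8, 96.0, 113 and 95.9 CPM at 34 hpf (log2 fold change -1.11 ± 0.08, adjusted p = 3.31e-08). The salt transporter genes slc12a1 and slc12a3 fell with it (-1.36 ± 0.24 log2 units and -1.03 ± 0.17). The kidney factors pax8, pax2a, osr1 and gata3, which act in other organs as well, rose by 1.17 ± 0.14 log2 units, 0.77 ± 0.09, 1.1 ± 0.13 and 0.74 ± 0.10. Among genes of hair cells and the inner ear, 12 of 31 measured members rose, 5 fell and 14 passed in neither direction (median log2 fold change 0.22). The lower count was 3 without the 3 low-globin libraries. The hair cell factor pou4f3 was at 4.74, 6.08, 4.96 and 3.13 CPM at 48 hpf, against 0.219, 0.163, 0.175 and 0.639 CPM at 34 hpf (log2 fold change 3.95 ± 0.49, adjusted p = 7.91e-06), the otolith genes stm and oc90 went opposite ways (1.19 ± 0.12 and -2.47 ± 0.33), and the proneural genes atoh1a and atoh1b fell (-1.37 ± 0.12 and -1.46 ± 0.09).

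Clock genes rose. In the circadian list, 25 of 40 measured members rose, 2 fell and 13 passed in neither direction (median log2 fold change 0.58). Members lower numbered 1 without 48 hpf replicate 1 or 4 or 34 hpf replicate 1 or 2. The repressor gene nr1d1 was at 1.30, 2.21, 3.21 and 2.37 CPM at 48 hpf, against 0.0547, 0.109, 0.233 and 0.197 CPM at 34 hpf (log2 fold change 3.91 ± 0.50, adjusted p = 1.05e-05). The clock-controlled factor dbpa rose by 2.31 ± 0.22 log2 units, nr1d2b by 1.28 ± 0.12, ciarta by 1.13 ± 0.12, per3 by 1.06 ± 0.12, the nuclear receptor gene rorab by 1.31 ± 0.11 and the kinase gene csnk1e by 0.94 ± 0.11. The labels give neither the hour of collection nor the light regime, and their part was not tested. Immediate early genes, which respond within minutes to stimulation, had 6 of 29 members higher and 2 lower (higher count 3 without the 3 low-globin libraries). Of these fosaa and egr1 rose by 1.57 ± 0.28 log2 units and 0.96 ± 0.28 with an adjusted p of 0.0867 for egr1 without the 3 low-globin libraries, and btg2 and dusp1 fell (-0.79 ± 0.16 and -0.54 ± 0.10).

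Energy genes differed by pathway. Of the 12 mitochondrially encoded genes 0 passed in edgeR over all libraries, DESeq2 or limma-voom, and 0 had an unadjusted p below 0.05, the smallest p values being those of mt-nd1 (log2 fold change -0.23 ± 0.11, adjusted p = 0.139) and mt-nd6 (log2 fold change 0.23 ± 0.11, adjusted p = 0.130). With the sibling libraries fitted alone mt-nd6 passed (adjusted p = 0.0148). These genes took 3.46 ± 0.101% of counts at 48 hpf and 3.30 ± 0.312% at 34 hpf (SD, n = 4 each, exact permutation p = 0.4), and the difference turned to -0.0143 percentage points on TMM-scaled library sizes (exact permutation p = 0.971). Of the nuclear respiratory chain genes 3 of 90 rose, 1 fell and 86 passed in neither direction (median log2 fold change 0.01). These are 3.3% and 1.1%, against 18.3% and 15.7% of all genes. Without the 3 low-globin libraries 1 rose and 0 fell. The higher count was 1 without 34 hpf replicate 2 or 3, and the lower 0 without 48 hpf replicate 1, 3 or 4 or 34 hpf replicate 1, 2, 3 or 4. Among glycolysis genes, 9 of 29 measured members rose, 3 fell and 17 passed in neither direction (median log2 fold change 0.21). The lower count was 1 without 48 hpf replicate 3 or 34 hpf replicate 1, and 0 without the 3 low-globin libraries. Pyruvate kinase pkmb was at 234, 229, 225 and 254 CPM at 48 hpf, against 70.4, 94.6, 111 and 87.0 CPM at 34 hpf (log2 fold change 1.37 ± 0.13, adjusted p = 3.14e-07). The neuronal enolase gene eno2 rose by 1.16 ± 0.14 log2 units, gapdhs by 0.91 ± 0.13, pfkpb by 0.90 ± 0.14 and lactate dehydrogenase ldha by 0.55 ± 0.09.

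Among the largest falls beyond the lists, the cathepsin genes ctss2.1 and ctsll fell, with log2 fold changes of -4.46 ± 0.37 and -3.37 ± 0.56, ctsh with -2.61 ± 0.26, and the acid phosphatase gene acp5a with -4.19 ± 0.48. The cathepsin ctss2.1 had 4.69, 3.43, 3.26 and 4.39 CPM at 48 hpf, against 103, 82.5, 98.9 and 62.7 CPM at 34 hpf. Other large falls were prtgb, of the protogenin family of cell surface receptors (-4.08 ± 0.33 log2 units), the cytochrome gene cyp4t8 (-3.05 ± 0.19) and the microRNA gene mir219-3 (-3.28 ± 0.32). Among the largest rises outside the lists were igfn1.3 (6.79 ± 0.91 log2 units), ccdc88aa (4.99 ± 0.27), tmem119a (4.98 ± 0.48), fgfbp2b (4.51 ± 0.30) and the retinal gene samd7 (4.42 ± 0.30), together with the gamma crystallin gene crygm5 (5.03 ± 0.42). The igfn1.3 transcript had 50.6, 61.8, 72.5 and 17.9 CPM at 48 hpf, against 0.164, 0.407, 0.496 and 0.737 CPM at 34 hpf. Every 34 hpf library was below 1 CPM.

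The same stages were compared in the knockouts, whose libraries are none of those above but carry the same stage and batch labels. There 3745 genes rose (15.5%) and 2921 fell (12.1%). Of the 8171 genes called in siblings, 97.5% had the same sign in knockouts and 66.2% were called there in the same direction, while 81.1% of the knockout calls were called in siblings. In the opposite direction 9 genes were called. The targeted gene hnf4a had 12.9, 15.9, 10.8 and 9.46 CPM at 48 hpf, against 11.6, 15, 10.8 and 13.8 CPM at 34 hpf in siblings, and in knockouts it averaged 11.0 CPM at 48 hpf and 12.1 CPM at 34 hpf. Groups of either stage and genotype overlapped, so its level does not check the genotype labels. In siblings hnf4a did not pass between stages (-0.06 ± 0.27 log2 units), and neither did hnf4b (-0.70 ± 0.47) or its relative hnf4g (0.80 ± 0.46).

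The stage change differed between siblings and knockouts for 49 genes (0.203% of those tested), 28 with the more positive change in siblings and 21 with the more negative. Genes of the retina and photoreceptor lists were among them. The transducin gene gnb3a rose by 6.72 ± 0.39 log2 units in siblings and 2.77 ± 0.39 in knockouts, a difference of 3.94 ± 0.58, adjusted p = 0.00545. For sagb the changes were 3.41 ± 0.32 log2 units in siblings and 1.14 ± 0.30 in knockouts, a difference of 2.27 ± 0.43, adjusted p = 0.0378. The ganglion cell determinant atoh7, whose sibling call was lost without 48 hpf replicate 1 or 2 or 34 hpf replicate 2 (adjusted p between 0.0521 and 0.0753) and without the 3 low-globin libraries (adjusted p = 0.128), fell in siblings (9.23, 9.53, 11.0 and 10.4 CPM at 48 hpf, against 11.8, 19.2, 14.8 and 16.6 CPM at 34 hpf, log2 fold change -0.63 ± 0.20) and rose in knockouts (1.78 ± 0.21), a difference of -2.42 ± 0.29, adjusted p = 9.18e-04. Of the photoreceptor list 19 members rose and 1 fell in siblings (median 0.82), and in knockouts 13 rose and 2 fell (median 0.06); the difference between these counts was not tested. The synaptic genes stxbp1b and syt5b rose more in siblings, by 4.27 log2 units and 3.50, than in knockouts, by 2.21 ± 0.26 and 1.1 ± 0.18, with differences of 2.06 and 2.40. Other positive differences were those of ccdc88aa (2.7 ± 0.36, adjusted p = 0.00286), the retinal factor bhlhe23 (2.26 ± 0.32, adjusted p = 0.00445), prox1a (0.72 ± 0.13, adjusted p = 0.0228) and liver glycogen phosphorylase pygl (2.16 ± 0.21, adjusted p = 2.08e-04). Negative differences were those of the lysosomal ctss2.1 (-2.51 ± 0.47, adjusted p = 0.0321) and ctsh (-1.82 ± 0.35, adjusted p = 0.0456), the lipase gene ddhd2 (-2.08 ± 0.26, adjusted p = 0.00116), the receptor gene tnfrsf9a (-1.77 ± 0.27, adjusted p = 0.00768) and the ammonia transporter rhbg (-1.5 ± 0.18, adjusted p = 9.18e-04). The levels at 34 hpf enter these differences. Mean levels at 34 hpf in siblings and knockouts were 26.6 and 4.89 CPM for ddhd2 and 60.1 and 19.4 for ctsh. They were 86.7 and 40.9 CPM for ctss2.1, 15.6 and 4.86 for atoh7 and 1.43 and 3.85 for syt5b. For gnb3a they were 0.296 and 0.297 CPM, for ccdc88aa 0.445 and 0.587 and for bhlhe23 0.870 and 0.937. The pairs for pygl and tnfrsf9a were 8.61 and 6.11 CPM and 2.87 and 3.57. The count of 49 genes depended on the tool and the libraries. DESeq2 called 177 genes, and edgeR without 48 hpf replicate 1, 2 or 3 or 34 hpf replicate 3 gave 32, 25, 24 and 31.

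**Figure D5:**
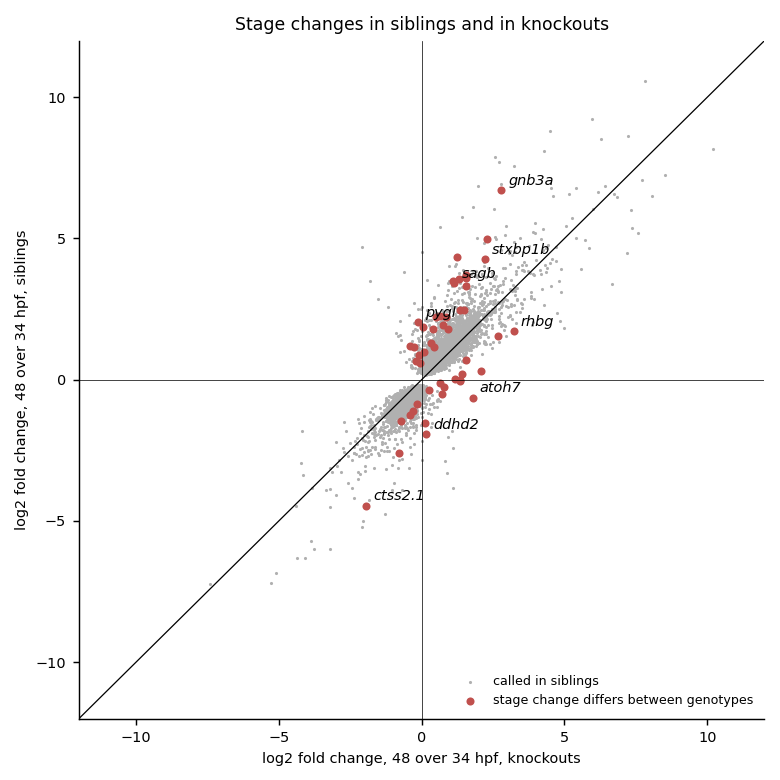
Log2 fold change between 48 and 34 hpf in siblings (vertical) against that in knockouts (horizontal) for the 8171 genes called in siblings (grey), with the 49 genes whose change differs between genotypes in red and the line of equal change. Most points lie along the line, with gnb3a and stxbp1b above it and atoh7 and rhbg below it.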

How the data were processed

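RNA was taken from whole embryos with TRIzol and made into libraries with a VAHTS Universal V8 kit, per the labels' protocols. The files hold raw counts for each gene symbol, as the authors deposited them. The submitters' processing notes list FastQC 0.12.1, featureCounts 2.0.6, STAR 2.7.10b, Trim Galore 0.6.10 and build GRCz11. The annotation, the strand setting and the handling of multiply aligned reads were not given in the sources used here. Near-identical copies (crystallins, he1, hbbe and tnni2b genes) and genes that overlap or run antisense to others are uncertain for that reason.

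Of 36109 symbols, 24084 passed edgeR's filterByExpr. All 16 libraries were fitted in a model of 4 groups with TMM scaling (edgeR 4.0.16, R 4.3.3, glmQLFit and glmQLFTest). Calls needed a p below 0.05 after Benjamini-Hochberg adjustment across all 24084. CPM use TMM-scaled library sizes. The difference between genotypes was tested as an interaction. Shares of counts were compared by exact two-sided permutation. Groups with 0 counts took a floor of 3 counts in total, which covers counting error only. The closest pair of replicates differed by 7.82 times counting noise. TMM, DESeq2 size factors and upper quartile scaling put the median log2 fold change at -0.03, -0.03 and -0.02.

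Members, the 53 lists and the rule for named genes were chosen with earlier results of these data known. Named genes were the 12 largest rises and falls among called genes (average log2 CPM of at least 1, groups apart), per list the 6 called members of smallest p and the largest rise and fall (with no call, the 2 smallest p), tissue markers, hnf4 genes and the 5 largest differences between genotypes either way. Some genes that this rule takes are not reported here. Symbols that the apolipoprotein pattern had caught wrongly were dropped after values were seen. Among the genotype differences sagb, stxbp1b, prox1a and rhbg were chosen after their values were seen, and so was crygm2f among lens genes. Alternatives were DESeq2 1.42.0, limma-voom (limma 3.58.1), other scalings and filters, a robust prior, a test against a 1.5-fold change, siblings only, a replicate block, and left-out libraries. On simulated counts (23301 genes, 200 of them changed) the stage test recovered 34.3%, 82.1% and 98.5% of 1.5-, 2- and 4-fold changes, with 9 false among 152 calls. Far fewer genes changed there than were called here, which makes the adjusted p stricter, so these rates do not give the recovery in these data. Tables used pandas 2.3.3 and scipy 1.17.1, figures matplotlib 3.10.9.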

Additional observations from a re-analysis of the deposited data

Results flagged for a closer look

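In 30 of 570 groups of 4 libraries, 1 library lay far from the other 3 by Dixon's test. Chance alone gives about 1 in 20. Replicate 4 of 34 hpf was the highest for agt (2.48 CPM, the others 0.758 to 1.00), dbpa (2.38 CPM, the others 1.39 to 1.55) and pou4f3 (0.639 CPM, the others 0.163 to 0.219). It was also the highest for syt5b (2.16 CPM, the others 1.09 to 1.25). Replicate 3 of 34 hpf was the lowest for and1 (141 CPM, the others 163 to 166), myhb (0.292 CPM, the others 0.574 to 0.597) and prox1a (37.7 CPM, the others 44.9 to 45.3). Replicate 1 of 48 hpf was the highest for apoeb (790.0 CPM, the others 601 to 614) and gapdhs (217 CPM, the others 203 to 204). Replicate 1 of 48 hpf was the lowest for atp1a1a.1 (356 CPM, the others 394 to 396), col10a1a (34.0 CPM, the others 40.8 to 41.5) and gch2 (367 CPM, the others 454 to 468). It was also the lowest for slc12a1 (2.07 CPM, the others 2.53 to 2.60). Replicate 3 of 34 hpf was the highest for cdh17 (113 CPM, the others 93.8 to 96.0). Replicate 1 of 34 hpf was the highest for dll4 (8.48 CPM, the others 7.93 to 8.01), he1.3 (3.72 CPM, the others 1.31 to 1.67) and nefla (2.21 CPM, the others 1.09 to 1.18). It was also the highest for slc12a1 (7.82 CPM, the others 5.59 to 5.94). Replicate 1 of 34 hpf was the lowest for elavl4 (129.9 CPM, the others 149 to 152). Replicate 4 of 48 hpf was the lowest for gata3 (57.8 CPM, the others 70.4 to 72.5), isl1 (55.3 CPM, the others 62.6 to 63.6) and mpeg1.1 (4.63 CPM, the others 7.65 to 8.19). It was also the lowest for prdm1a (27.1 CPM, the others 32.3 to 33.0). Replicate 4 of 48 hpf was the highest for klhl41b (123 CPM, the others 99.7 to 103). Replicate 3 of 48 hpf was the lowest for mylpfa (5103 CPM, the others 5638 to 5716). Replicate 2 of 34 hpf was the highest for plp1a (413 CPM, the others 389 to 393). Replicate 2 of 34 hpf was the lowest for plvapa (0.109 CPM, the others 0.273 to 0.295). Replicate 2 of 48 hpf was the highest for prox1a (101 CPM, the others 93.2 to 94.1). Replicate 4 of 34 hpf was the lowest for snorc (6.46 CPM, the others 8.29 to 8.31). Replicate 4 of 48 hpf also held the highest share of hatching gland counts (0.192%, the others 0.133 to 0.142%).

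The change between stages differed between siblings and knockouts, by edgeR's test of the interaction, for 18 of the 279 genes named here. Over all 24084 genes tested it did for 49 (0.203%). Most of the 18 were named because this test called them, or were chosen after their values were seen. Their number therefore does not measure how often the change differs. The log2 difference (siblings minus knockouts) was positive for bhlhe23 2.26, ccdc88aa 2.7, gnb3a 3.94, prox1a 0.72, pygl 2.16, rorab 1.00, sagb 2.27, stxbp1b 2.06, syt5b 2.40 and tfap2c 0.65. It was negative for atoh1b -0.73, atoh7 -2.42, cdh17 -0.82, ctsh -1.82, ctss2.1 -2.51, ddhd2 -2.08, rhbg -1.5 and tnfrsf9a -1.77.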

How the results depend on the processing

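Counts of genes kept within 1.5 times of 4400 higher and 3771 lower under DESeq2, limma-voom, other scalings, filters and the robust prior. The test against a 1.5-fold change left 1900 higher, 574 lower and 10 with a different change between genotypes. Siblings alone gave 5307 and 4564. Leaving out single sibling libraries gave 3960 to 4232 higher, 2878 to 3324 lower and 24 to 45 differences between genotypes. DESeq2 gave 177 differences. Leaving out the 3 low-globin libraries, chosen after the data were seen, gave 3168 higher, 2224 lower and 17 differences. With the repeat number as a replicate block there were 4438 higher, 3847 lower and 48 differences, and 5205 higher and 4469 lower with siblings alone. Deviations of same-numbered libraries across the stages correlated at -0.08, 0.20, -0.21 and 0.30, so the numbers were not taken to pair samples. Another grouping ran across the stages and was not modelled. Replicates 2 and 3 of 48 hpf correlated with 1 and 2 of 34 hpf at 0.20 to 0.22. Replicates 1 and 4 of 48 hpf correlated with 3 and 4 of 34 hpf at 0.09 to 0.30. All remaining pairs were negative (-0.29 to -0.08). The source of this grouping was not tested. Shares of counts kept their direction under each alternative run except that of mitochondrially encoded genes, where the difference of 0.158 percentage points (exact permutation p = 0.4) was -0.0143 on TMM-scaled library sizes (exact permutation p = 0.971). Of 260 called genes named, 189 kept their call under every alternative, and 47 lost it in the test against a 1.5-fold change alone. The genes agrp, atoh7, gata2a, hbbe3, hsp70.2, krt5, meis1b, nppa and prss1 lost it in at least 1 of the fits that left out a library. Of the genes named that did not pass, 6 passed under an alternative: mt-nd6, mylpfa and tfa with siblings alone, and hbae3 (adjusted p = 0.0381), dct (adjusted p = 0.0396) and myod1 (adjusted p = 0.0392) with the replicate block, dct also with DESeq2 and without replicate 1 of 34 hpf. The calls of prss1 and meis1b were lost with the block (adjusted p = 0.0576 and 0.0519). On simulated data with 200 changed genes, 1.5-fold changes between stages were recovered in 34.3% of cases, a rate that does not carry over to these data.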

Other observations

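Lists of regional identity and growth signals, not described above, are also to be read against 18.3% and 15.7% of all genes. Of 49 measured hox genes, 8 rose and 8 fell (5 and 4 without the 3 low-globin libraries). Each is 16.3%, near the shares of all genes. The hindbrain gene hoxb1a fell, at 0.389, 0.663, 0.827 and 0.539 CPM at 48 hpf, against 2.24, 1.74, 2.04 and 1.28 CPM at 34 hpf (log2 fold change -1.59 ± 0.31, adjusted p = 5.90e-04). Genes hoxc5a and hoxb5a rose by 1.1 ± 0.12 log2 units and 0.75 ± 0.11. In the segmentation and tailbud list 2 of 30 measured members rose, 8 fell and 20 passed in neither direction (median log2 fold change -0.46). The higher count was 4 without 48 hpf replicate 1. The tail factor cdx4 had 0.726, 0.387, 0.362 and 0.700 CPM at 48 hpf, against 2.35, 2.17, 3.21 and 1.62 CPM at 34 hpf (log2 fold change -2.10 ± 0.27, adjusted p = 1.06e-05). The early pluripotency-linked gene lin28a had 22.7, 19.2, 22.6 and 24.5 CPM at 48 hpf, against 116, 93.4, 98.6 and 80.8 CPM at 34 hpf (log2 fold change -2.13 ± 0.13, adjusted p = 6.49e-09). Neither gene's groups overlapped.

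Among hedgehog pathway genes 8 of 17 fell and 2 rose (5 and 1 without the 3 low-globin libraries, and the higher count 1 without 48 hpf replicate 1, 2, 3 or 4 or 34 hpf replicate 2, 3 or 4). The signal transducer smo fell (log2 fold change -0.59 ± 0.10, adjusted p = 2.60e-04), and so did gli2a (-0.56 ± 0.12), a call lost without the 3 low-globin libraries (adjusted p = 0.0547). Of the Wnt genes 4 of 25 rose and 7 fell (lower count 4 without 48 hpf replicate 1). The transcription factor lef1 rose (1.01 ± 0.11 log2 units) and wnt1 fell (-0.99 ± 0.14). Of the BMP and TGF beta genes 7 of 27 rose and 4 fell (1 without the 3 low-globin libraries). The inhibitor genes id2a and id4 rose (0.95 ± 0.15 log2 units and 1.59 ± 0.12) while id1 and bmp7a fell (-0.50 ± 0.12 and -1.62 ± 0.35), the call of id1 being lost without the 3 low-globin libraries (adjusted p = 0.0556). Of the genes of insulin-like growth factors and thyroid hormone 7 of 30 rose and 3 fell (4 and 1 without the 3 low-globin libraries, and the lower count 1 without 48 hpf replicate 2 or 3 or 34 hpf replicate 1, 2 or 4). The deiodinase gene dio2, which makes active thyroid hormone, and the receptor gene thrb rose (1.43 ± 0.42 log2 units and 0.94 ± 0.11). In the heat shock and unfolded protein list, 5 of 32 measured members rose, 9 fell and 18 passed in neither direction (median log2 fold change -0.04). The higher count was 3 without 48 hpf replicate 1 or 3 and 2 without 48 hpf replicate 2 or 34 hpf replicate 3 or 4, and 1 without the 3 low-globin libraries, and the lower count 5 without 48 hpf replicate 1, and 4 without the 3 low-globin libraries. The small heat shock gene hspb1 fell (-1.15 ± 0.17 log2 units), at 18.5, 15.4, 11.1 and 12.5 CPM at 48 hpf, against 39.4, 24.1, 33.6 and 30.2 CPM at 34 hpf. The mitochondrial chaperone gene hspd1 fell too (-0.58 ± 0.12 log2 units), while the chaperone gene hsp70.2 and the stress factor gene ddit3 rose (1.33 ± 0.47 and 0.72 ± 0.11). The call of hsp70.2 was lost without 48 hpf replicate 1, 2, 3 or 4 or 34 hpf replicate 1, 2, 3 or 4 (adjusted p between 0.0568 and 0.0875), with edgeR's robust prior (adjusted p = 0.0648) and without the 3 low-globin libraries (adjusted p = 0.239).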
